A study of Mus musculus with 2 samples.

Results

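Red cell barcodes of mouse dura mater, the outer membrane of the meninges, were the droplets whose RNA was almost entirely haemoglobin transcript. They were chosen from measured values: a barcode was taken when fewer than 200 genes were detected in it and more than 50% of its UMIs (unique molecular identifiers, one per captured RNA molecule) came from genes whose symbol starts with Hba- or Hbb-. The rule found 498 of the 8499 deposited barcodes, with 242 of 3004 in the JVL-14 library and 256 of 5495 in the sham library.

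The study asked how cerebral venous outflow bears on fluid clearance through the dural lymphatics, and this single-cell RNA sequencing compared the dura of female mice 14 days after jugular venous ligature (JVL-14) with that of female mice after sham surgery. The time since the sham operation and the number of mice were not given in the sources used here. For both groups, mice were perfused with PBS, the dura was peeled off the skull cap and digested with collagenase and DNase, cells of 2 meninges were pooled per well, and viable singlets were sorted with 20000 cells loaded. There was 1 library per group, so no difference between the groups could be tested, and every interval given here is a 95% interval that covers counting error only. UMIs of 1 barcode are not independent, so the true uncertainty is wider.

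A mature red cell has no nucleus. It is formed when an erythroblast expels its nucleus and becomes a reticulocyte, which keeps its messenger RNA for a short time while it clears mitochondria and ribosomes. Haemoglobin is built from alpha and beta globin chains, each holding a haem group, and adult mice carry a pair of near-identical alpha genes (Hba-a1 and Hba-a2) and, on the haplotype these gene names describe, a pair of beta genes (Hbb-bs and Hbb-bt).

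The sequences just before the start sites of 3 of the chosen globin genes are shown because the results below turn on how unequally the beta pair was represented and how evenly the alpha pair was. The 100 bases upstream of each start, from RefSeq on GRCm38.p6 and written 5′ to 3′ on the gene's strand, are at chr7:103827929-103828028 (minus strand) for Hbb-bs, chr7:103813924-103814023 (minus strand) for Hbb-bt and chr11:32283572-32283671 (plus strand) for Hba-a1. Capitals mark, on either strand, matches to the CACCC box, to the CCAAT box (read as ATTGG where it lies on the opposite strand) and to the letters ATATAA of a TATA-type box, and no matches overlap. The letters GATAA, a core read by erythroid GATA factors, were also searched.
Hbb-bs: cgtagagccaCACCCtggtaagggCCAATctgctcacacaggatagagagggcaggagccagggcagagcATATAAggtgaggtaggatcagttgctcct
Hbb-bt: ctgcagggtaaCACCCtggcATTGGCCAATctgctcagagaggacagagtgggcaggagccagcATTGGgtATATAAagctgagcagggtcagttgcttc
Hba-a1: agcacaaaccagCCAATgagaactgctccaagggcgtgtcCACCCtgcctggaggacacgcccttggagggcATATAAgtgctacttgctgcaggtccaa
Over 32851 windows of 100 bases upstream of RefSeq genes, the CACCC letters were present in 27.2%, the CCAAT letters in 18.9%, the ATATAA letters in 3.74% and the GATAA letters in 8.55%. All 3 globin windows held the first 3 motifs and none held GATAA, which says only that these letters are not in these windows; CCAAT occurred 1 time before Hbb-bs, 3 times before Hbb-bt and 1 time before Hba-a1. Aligned over 250 upstream bases, Hbb-bs and Hbb-bt matched at 185 positions with 54 mismatches and 22 gap positions. Hba-a1 and Hba-a2 matched at 247 positions with 0 mismatches and 6 gap positions. These matches are descriptions of letters and were not tested for any part in expression.

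Of the markers of the label, the 4 globin genes were part of the rule and check nothing, which leaves Alas2. A UMI of Alas2, the erythroid enzyme of the first step of haem synthesis, was found in 86.4% of JVL-14 red cell barcodes and 87.5% of sham red cell barcodes. In barcodes with a globin share of at most 50%, called other barcodes from here on, the share with an Alas2 UMI was 1.28% in JVL-14 and 0.641% in sham. In barcodes with a globin share over 50% but 200 genes or more it was 98.95% in JVL-14 and 98.94% in sham. An Alas2 UMI therefore did not set red cell barcodes apart from those. Median depth was 7752 UMIs in JVL-14 and 7982 in sham red cell barcodes, and 4154 and 4172 in the other barcodes with 200 genes or more. Globin made up a median of 98.0% of UMIs in JVL-14 red cell barcodes and 97.7% in sham ones, which the rule itself selected.

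The library totals were 18796260 UMIs in JVL-14 and 33996641 in sham, and the lowest barcode in each held 500 UMIs. The median globin share of other barcodes with 200 genes or more was 0.0376% in JVL-14 and 0.0225% in sham. An Hbb-bs UMI was still present in 63.4% of other barcodes in JVL-14 and 51.5% in sham, so detection of a globin UMI alone did not mark a red cell. The libraries had 2 barcode sequences in common, of which 1 was a red cell barcode in JVL-14 and none was one in both.

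Red cell barcodes took a larger share of the JVL-14 library than of the sham library. They were 8.06% of barcodes in JVL-14 (exact interval 7.11 to 9.09%) and 4.66% in sham (4.12 to 5.25%), a ratio of 1.73 (1.44 to 2.07). Their UMIs were 9.35% of all UMIs in JVL-14 and 5.67% in sham. Barcodes with a globin share over 50% but 200 genes or more had a ratio of similar size: 95 barcodes or 3.16% in JVL-14 and 94 barcodes or 1.71% in sham, 1.85 times as large a share (1.38 to 2.49). Perfusion and the sort gate can each set these shares, and with 1 library a group they cannot be told apart from the ligature. A share also moves with the number of other cells: the counts of red cell barcodes themselves were 242 in JVL-14 and 256 in sham.

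The rule's limits fell in a sparse place for globin share and in a dense place for gene number. The 3 lowest globin shares inside the rule were 76.5, 92.2 and 92.5% in JVL-14 and 70.5, 82.5 and 86.0% in sham. The barcodes under 200 genes that the globin limit left out numbered 2 in JVL-14 and 10 in sham, with globin shares of at most 0.140% in JVL-14 and 1.06% in sham; mitochondrial transcripts made up 86.4 to 97.9% of their UMIs in JVL-14 and 56.9 to 98.1% in sham. At the gene limit the cloud of points ran on without a gap: the most gene-rich members had 196, 191 and 191 genes in JVL-14 and 191, 191 and 189 in sham, and the nearest globin-rich barcodes outside had 202, 204 and 204 in JVL-14 and 201, 201 and 204 in sham, all with globin shares of 94.2 to 96.5% on either side.

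**Figure D1:**
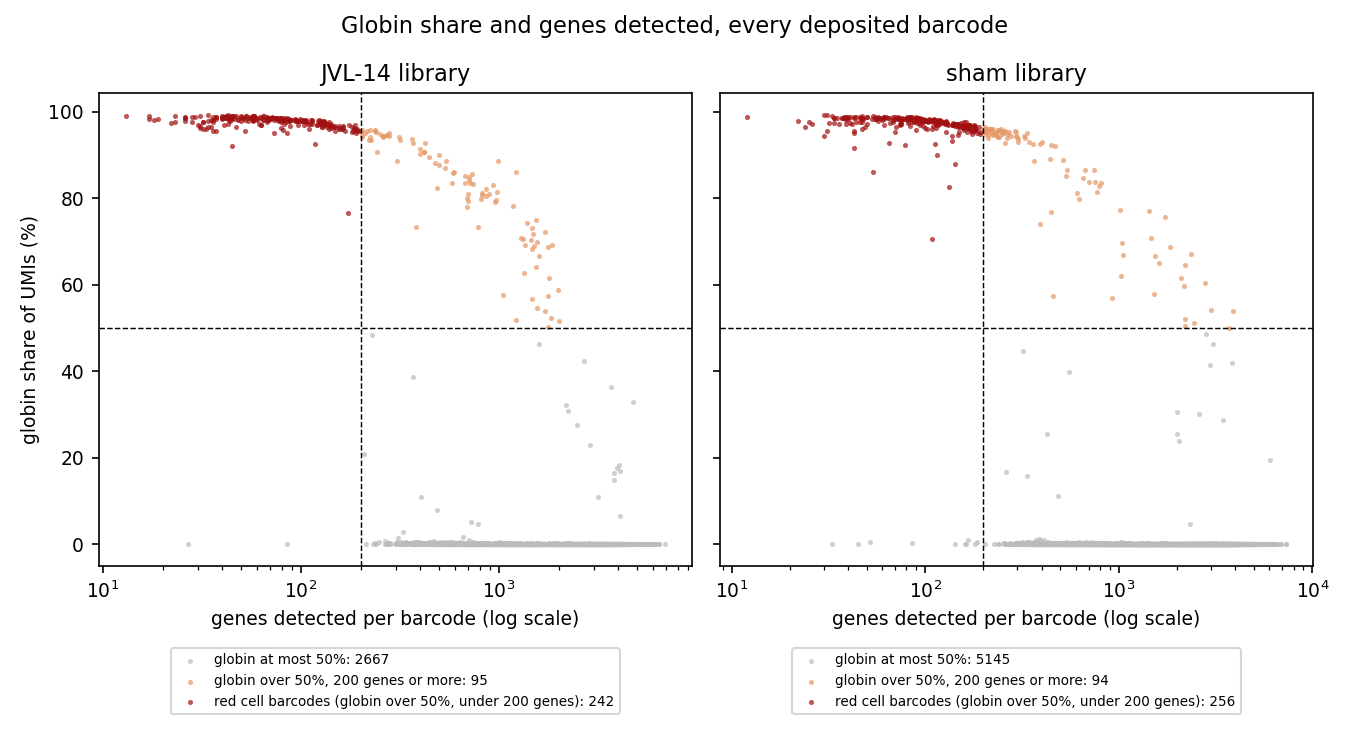
Globin share of UMIs (vertical axis, %) against genes detected (horizontal axis, log scale) for every deposited barcode of the JVL-14 (left) and sham (right) libraries; dashed lines are the limits of 200 genes and 50% globin that chose the red cell barcodes. The 242 JVL-14 and 256 sham red cell barcodes sit near 98% globin and run on into the globin-rich barcodes with 200 genes or more, while most other barcodes lie near 0%.

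Summed over red cell barcodes, the 4 adult chains were present in close to the same proportions in both libraries. Hbb-bs was the most abundant, with 911298 UMIs or 53.1% of globin UMIs in JVL-14 and 985008 or 52.5% in sham. Hba-a1 followed with 21.6% in JVL-14 and 21.3% in sham, Hba-a2 with 16.3% in each library, and Hbb-bt with 9.01% in JVL-14 and 9.91% in sham. Alpha chain UMIs were thus 37.9% of globin UMIs in JVL-14 and 37.6% in sham, with beta chain UMIs making up nearly all of the rest. The rule summed the globin genes and did not use the split between them.

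The globin genes of the embryo were all but absent. Hbb-bh1 had 6 UMIs in JVL-14 and 4 in sham, Hbb-bh2 had 1 in JVL-14 and none in sham, Hbb-y had none in JVL-14 and 1 in sham, and Hba-x had none in either. Against 1715315 globin UMIs in JVL-14 and 1877400 in sham, these were 7 embryonic UMIs in JVL-14 and 5 in sham.

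The alpha pair was split in much the same way in red cell barcodes of every depth, and this split is uncertain. Hba-a1 exceeded Hba-a2 by a ratio of 1.33 in JVL-14 and 1.30 in sham, and across groups of red cell barcodes by depth it lay between 1.31 and 1.41 in JVL-14 and between 1.30 and 1.34 in sham. In other barcodes the ratio was 2.02 in JVL-14 and 1.35 in sham. Most of their globin UMIs came from the few with at least 1% globin. Those with 200 genes or more and under 1% globin held 6060 of 74774 globin UMIs in JVL-14 and 7954 of 69354 in sham. Their ratio was 1.49 in JVL-14 and 1.185 in sham. The GENCODE M21 transcripts of Hba-a1 and Hba-a2 are 699 and 554 bases long. They differ by 1 base in 538 aligned bases, beside 177 gap positions. Their last 100 bases, aligned on their own, had 0 mismatches in 84 aligned bases and 32 gap positions. The sources used here do not say how reads that match both genes were counted. The beta pair differed at more aligned bases, with 39 mismatches in 625 aligned bases and 81 gap positions. The last 100 bases of each beta transcript, aligned on their own, had 26 mismatches in 96 aligned bases and 8 gap positions.

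The beta pair, in contrast, was split very differently from one red cell barcode to the next. Hbb-bt made up a median of 12.4% of Hbb-bs and Hbb-bt UMIs per barcode in JVL-14, with a range of 0.163 to 27.5%, and a median of 15.2% in sham, with a range of 0.141 to 27.2%. The values did not gather around 1 level: in JVL-14 61 barcodes lay under 4%, 30 between 8 and 12% and 56 between 16 and 20%, and in sham 53, 24 and 68 barcodes lay in those ranges. Both libraries therefore held many red cell barcodes with almost no Hbb-bt and many in which it was over 16%.

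The Hbb-bt share followed the number of UMIs in the barcode. In JVL-14 the summed share was 2.14% in the 26 barcodes under 2000 UMIs, 5.52% in the 54 with 2000 to under 5000, 12.8% in the 86 with 5000 to under 10000 and 18.0% in the 76 with 10000 or more. In sham the same steps gave 4.55% (25 barcodes), 6.76% (53), 14.4% (100) and 19.3% (78). Expressed as a ratio, Hbb-bs exceeded Hbb-bt 45.8 times in the shallowest JVL-14 barcodes and 4.55 times in the deepest, and 21.0 times and 4.19 times in the same sham groups.

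The gradient went on beyond the rule's gene limit: in globin-rich barcodes with 200 genes or more the Hbb-bt share was 20.6% in JVL-14 and 20.8% in sham. Across barcodes, Spearman's rho between the Hbb-bt share and UMIs was 0.79 in JVL-14 (242 barcodes) and 0.70 in sham (256). Between that share and genes detected, which the rule limited, rho was also 0.79 in JVL-14 and 0.70 in sham. These values are a description, since barcodes of a library are not replicates and share its depth. In barcodes with 200 genes or more and under 1% globin, Hbb-bt was 17.1% of beta UMIs in JVL-14 (15.9 to 18.3%) and 14.5% in sham (13.6 to 15.5%), and the part of free RNA in the gradient was not tested. Within each depth group the JVL-14 share was the lower one, by 1.24 to 2.42 percentage points.

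**Figure D2:**
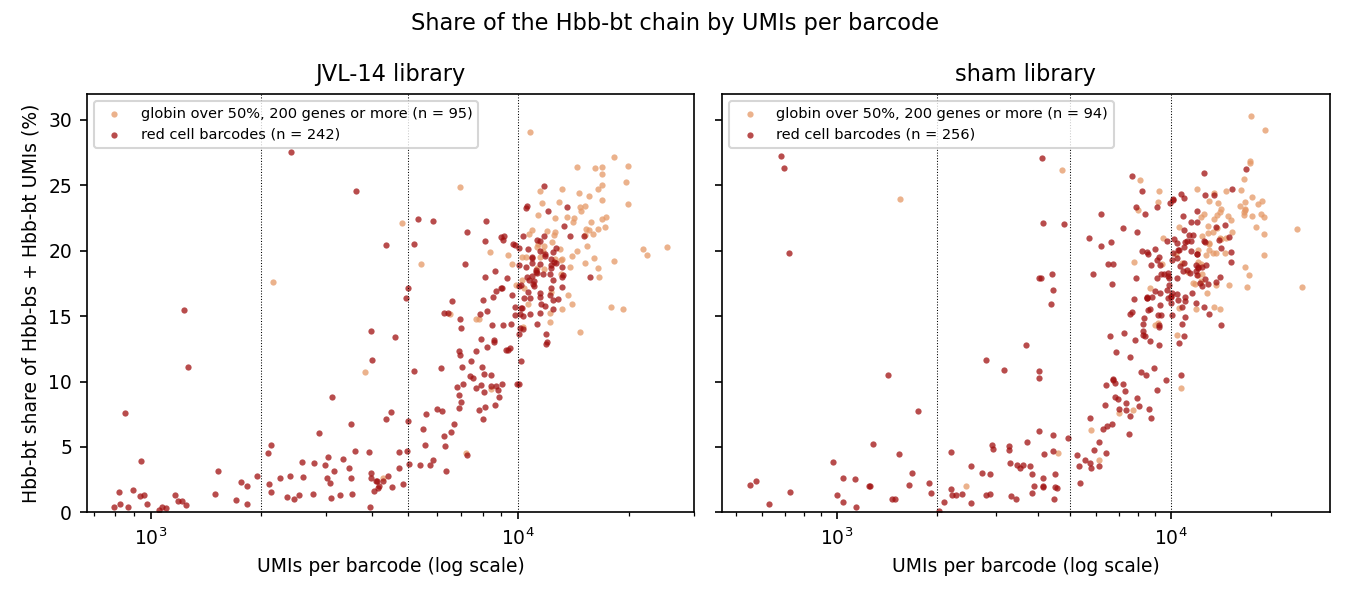
Hbb-bt share of Hbb-bs and Hbb-bt UMIs (vertical axis, %) against UMIs per barcode (horizontal axis, log scale) in the JVL-14 (left) and sham (right) libraries, one point a barcode, with dotted lines at 2000, 5000 and 10000 UMIs. In both libraries most red cell barcodes under 2000 UMIs lie under 5% and those of 10000 UMIs or more lie between 9.80 and 26.2%, where most globin-rich barcodes with 200 genes or more also lie.

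The alpha share differed with depth mainly at the shallow end. It was 46.7% of globin UMIs under 2000 UMIs, 39.8% at 2000 to under 5000, 38.1% at 5000 to under 10000 and 37.0% at 10000 or more in JVL-14, and 46.6, 37.7, 37.4 and 37.6% in sham. Single barcodes at the extremes were shallow and were picked out after their values were seen. The highest alpha share was 68.3% in a JVL-14 barcode of 1235 UMIs and 87.1% in a sham barcode of 1424 UMIs. The lowest was 25.2% in a JVL-14 barcode of 1825 UMIs, while a sham barcode of 684 UMIs had 428 Hbb-bs and 160 Hbb-bt UMIs and no alpha chain UMI, which allows an alpha share of up to 0.510%.

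Outside globin, red cell barcodes held little RNA. The median was 127 non-globin UMIs per barcode in JVL-14 (range 12 to 603) and 164 in sham (9 to 608), and 41551 in all in JVL-14 and 50243 in sham. Levels of single genes are therefore given as CPM, here the UMIs of a gene per 1000000 non-globin UMIs, on which 1 UMI is worth 24.1 in JVL-14 and 19.9 in sham. With at least 20 UMIs in the red cell barcodes of both libraries together, 378 non-globin genes were measured. A gene could pass this minimum by being high in red cell barcodes, and genes low there dropped out. Counts of measured genes higher than in other barcodes are therefore a description and give no separate support. Of these, 175 (46.3%) were at least 2-fold higher in red cell barcodes than in other barcodes in both libraries and 83 (22%) at least 2-fold lower in both, and the counts of the gene groups below are read against these shares. The globin limit did not use the makeup of the non-globin RNA, but the limit on gene number can bear on it.

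Haem synthesis genes held 7.46% of non-globin UMIs in JVL-14 red cell barcodes and 6.79% in sham ones, against 0.0664% and 0.0479% in other barcodes. Of the 13 genes listed, 4 were measured and all 4 were at least 2-fold higher in red cell barcodes. Alas2 was the highest non-globin gene, at 54656 CPM in JVL-14 (2271 UMIs) and 48007 in sham (2412 UMIs). Fech, which inserts iron to complete haem, stood at 8496 CPM in JVL-14 and 8459 in sham, and Slc25a39, a mitochondrial carrier that brings in glutathione, at 8544 in JVL-14 and 8320 in sham. Of the 13 genes, 4 were at 0 in JVL-14 and 4 in sham.

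Iron genes held 6.83% of non-globin UMIs in JVL-14 and 6.63% in sham. All 3 measured genes of the 9 listed were at least 2-fold higher than in other barcodes. They were Ftl1 and Fth1, the light and heavy chains of the iron store ferritin, and Slc25a37, the mitochondrial iron importer mitoferrin. Ftl1 reached 47989 CPM in JVL-14 and 45419 in sham. Tfrc, the transferrin receptor that brings iron into young erythroid cells, had no UMI in JVL-14 and 1 in sham, whereas globin-rich barcodes with 200 genes or more held 1172 CPM in JVL-14 and 395 in sham.

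Genes for clearing organelles and for the last steps of maturation held 8.97% of non-globin UMIs in JVL-14 and 9.13% in sham, against 0.0523% and 0.0555% in other barcodes. Of the 15 listed, 9 were measured and all 9 were at least 2-fold higher. Mkrn1, a ubiquitin ligase, stood at 32586 CPM in JVL-14 and 35249 in sham. Ube2l6, a conjugating enzyme for ubiquitin-like proteins, stood at 21636 CPM in JVL-14 and 21635 in sham. Bnip3l, a receptor that marks mitochondria for removal in reticulocytes, stood at 18844 in JVL-14 and 17475 in sham.

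Genes of the red cell cytosol were the largest group. They held 16.3% of non-globin UMIs in JVL-14 and 13.9% in sham, and 10 of 13 measured genes were at least 2-fold higher than in other barcodes. Bpgm, which makes the 2,3-bisphosphoglycerate that lowers the oxygen affinity of haemoglobin, stood at 42670 CPM in JVL-14 and 37975 in sham, which was 1264 times its level in other barcodes in JVL-14 and 1414 times in sham. Gpx1, a peroxidase, and Ubb, a ubiquitin gene, were also among the 12 highest genes. The other 3 measured genes were at least 2-fold lower than in other barcodes. Among them were Gapdh and Aldoa, enzymes of glycolysis.

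Membrane genes were sparser. The membrane skeleton list held 1.05% of non-globin UMIs in JVL-14 and 0.886% in sham, and 4 of its 18 genes were measured. Epb41, which ties spectrin to the membrane, was the highest at 5824 CPM in JVL-14 and 5374 in sham. Slc4a1, the anion exchanger band 3 of the red cell membrane, had 18 UMIs in JVL-14 and 21 in sham, at 433 and 418 CPM, while globin-rich barcodes with 200 genes or more held 2868 CPM in JVL-14 and 1700 in sham. Of 11 erythroid transcription factors only Lmo2 was measured, with 28 UMIs in JVL-14 and 26 in sham.

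**Figure D3:**
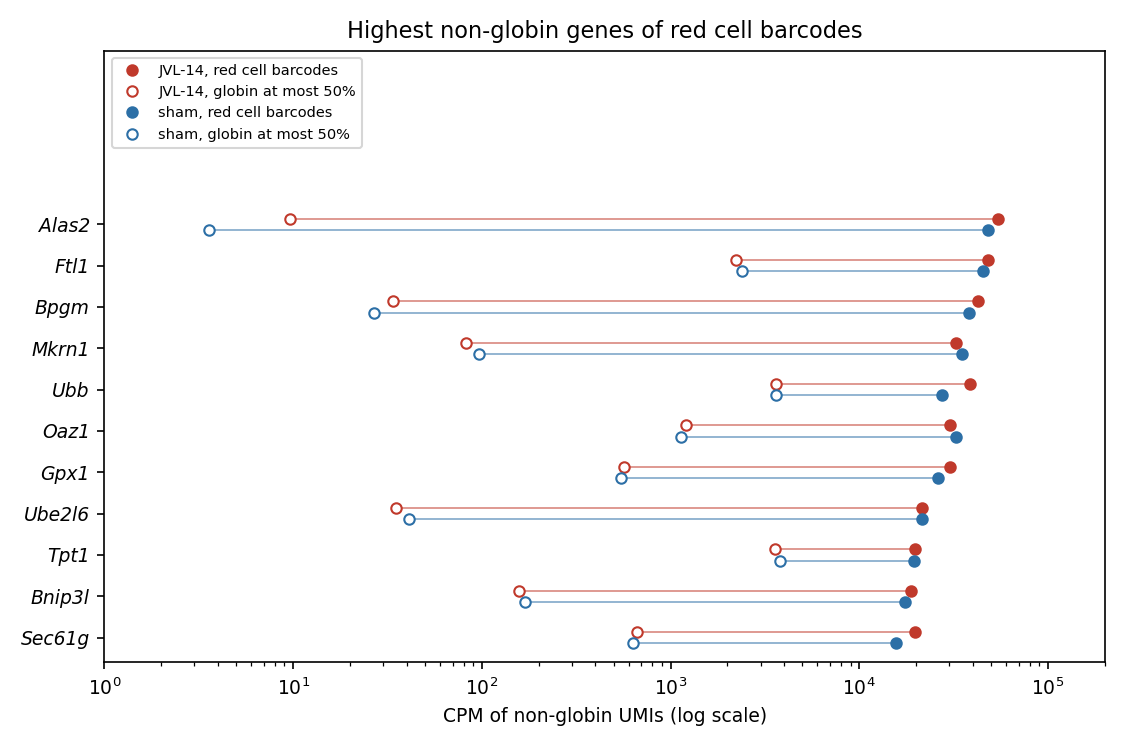
Levels of non-globin genes that were among the 12 highest in red cell barcodes (filled points) and their levels in barcodes with globin at most 50% (open points), in CPM of non-globin UMIs on a log axis, for JVL-14 (red, upper of each pair) and sham (blue, lower). In red cell barcodes the levels of both libraries lie close together for most of these genes, with Ubb furthest apart and Alas2 highest at 54656 in JVL-14 and 48007 in sham.

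The genes that stood furthest above other barcodes in both libraries, among those with at least 10 UMIs in each, included Hbq1a, Alas2, Apol11b, Fam220a, Bpgm, Rec114, Gm10371, Tent5c, Ube2l6, Hbq1b and F930017D23Rik. Hbq1a and Hbq1b are theta-type globin genes, whose symbols the rule's globin genes do not cover; they are near copies, so their split is uncertain. Hbq1a had 48 UMIs in 41 barcodes in JVL-14 and 55 UMIs in 43 barcodes in sham, and Hbq1b had 23 in JVL-14 and 21 in sham. Rec114, known for its role in meiotic recombination, had 97 UMIs in JVL-14 and 100 in sham at 2334 and 1990 CPM, against 3.44 and 0.358 CPM in other barcodes. Tent5c, a poly(A) polymerase, stood at 9386 CPM in JVL-14 and 9275 in sham.

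Nuclear RNA was low. The nucleus-retained transcripts (Malat1, Neat1, Xist and Kcnq1ot1) held 0.390% of non-globin UMIs in JVL-14 red cell barcodes and 0.336% in sham ones, against 3.82% and 4.08% in other barcodes. In globin-rich barcodes with 200 genes or more they held 3.79% in JVL-14 and 3.52% in sham, close to the level of other barcodes. Malat1, the most abundant of the 4, was 0.101 times its level in other barcodes in JVL-14 and 0.0834 times in sham. Proliferation genes had 14 UMIs in JVL-14 and 11 in sham in all, 0.0337% and 0.0219% of non-globin UMIs, against 0.900% and 0.370% in the globin-rich barcodes with 200 genes or more.

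Ribosomal protein transcripts held 9.10% of non-globin UMIs in JVL-14 and 9.47% in sham, below the 14.8% and 13.4% of other barcodes. Of 73 measured ribosomal protein genes, 35 were at least 2-fold lower and 2 at least 2-fold higher (Rpl41 and Rplp0). Mitochondrially encoded transcripts held 2.19% in JVL-14 and 2.54% in sham, near the 2.37% and 2.51% of other barcodes, and none of the 10 measured genes differed 2-fold in both libraries.

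Markers of other cells held less of the non-globin RNA than in other barcodes, except for olfactory ones in sham. Neutrophil markers held 0.226% of non-globin UMIs in JVL-14 red cell barcodes and 0.207% in sham ones, against 2.65% and 2.84% in other barcodes. In JVL-14 macrophage markers held 0.0963%, fibroblast markers 0.0866% and B cell markers 0.0265%, and in sham they held 0.0936%, 0.106% and 0.0478%. Platelet markers had 4 UMIs in JVL-14 and 6 in sham, with 6 of 7 genes at 0 in each. Endothelial markers had no UMI in JVL-14, where a floor of 3 UMIs is 0.00722%, and 3 UMIs in sham. Olfactory neuron markers held 0.0746% in JVL-14 and 0.173% in sham, against 0.292% and 0.170% in other barcodes, and skeletal muscle markers 0.00241% in JVL-14 and 0.211% in sham, against 0.00764% and 0.414%.

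The non-globin RNA also differed in kind with depth. Haem synthesis genes made up 2.09% of non-globin UMIs under 2000 UMIs, 4.90% at 2000 to under 5000, 8.98% at 5000 to under 10000 and 7.35% at 10000 or more in JVL-14, and 1.53, 4.47, 7.72 and 6.90% in sham. Organelle removal genes went the same way, 2.78, 4.03, 8.96 and 10.0% in JVL-14 and 1.74, 4.89, 8.72 and 10.6% in sham. Ribosomal protein genes ran opposite, 18.3, 18.8, 10.1 and 6.75% in JVL-14 and 19.0, 15.1, 10.4 and 7.21% in sham. Mitochondrially encoded genes ran the same way as ribosomal ones, with 6.26, 4.82, 2.72 and 1.36% in JVL-14 and 5.56, 3.79, 2.84 and 1.92% in sham.

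Over the 97 genes with at least 60 UMIs in each library, barcodes with 5000 UMIs or more were compared with those with fewer. The difference had the same direction in both libraries for 87 genes. In the deep barcodes of both libraries, 24 genes were at least 2-fold higher and 11 at least 2-fold lower. Deep barcodes held most of the non-globin UMIs, so genes high there passed the minimum more readily. The counts therefore do not weigh higher against lower genes. Mkrn1 was 6.19 times higher in deep barcodes in JVL-14 and 3.97 times in sham, and Bpgm 4.33 and 2.98 times. The 11 lower ones included Malat1 at 0.254 times in JVL-14 and 0.489 times in sham, mt-Cytb at 0.219 and 0.493 times and Rpl38 at 0.324 times in each library. Barcodes under 2000 UMIs held a median of 33.5 non-globin UMIs in JVL-14 and 47 in sham, and the part of free RNA in this pattern was not tested. In the shallowest JVL-14 barcodes Malat1 stood at 29540 CPM on 34 UMIs, near the 37336 of other barcodes, and in the shallowest sham barcodes at 8715 on 16 UMIs. At 2000 to under 5000 UMIs it stood at 5204 in JVL-14 and 4886 in sham. In the shallowest JVL-14 group 1 barcode held 297 of the 1151 non-globin UMIs. That barcode can weigh heavily on every level and share given for the group, and its part in the Malat1 level was not tested.

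**Figure D4:**
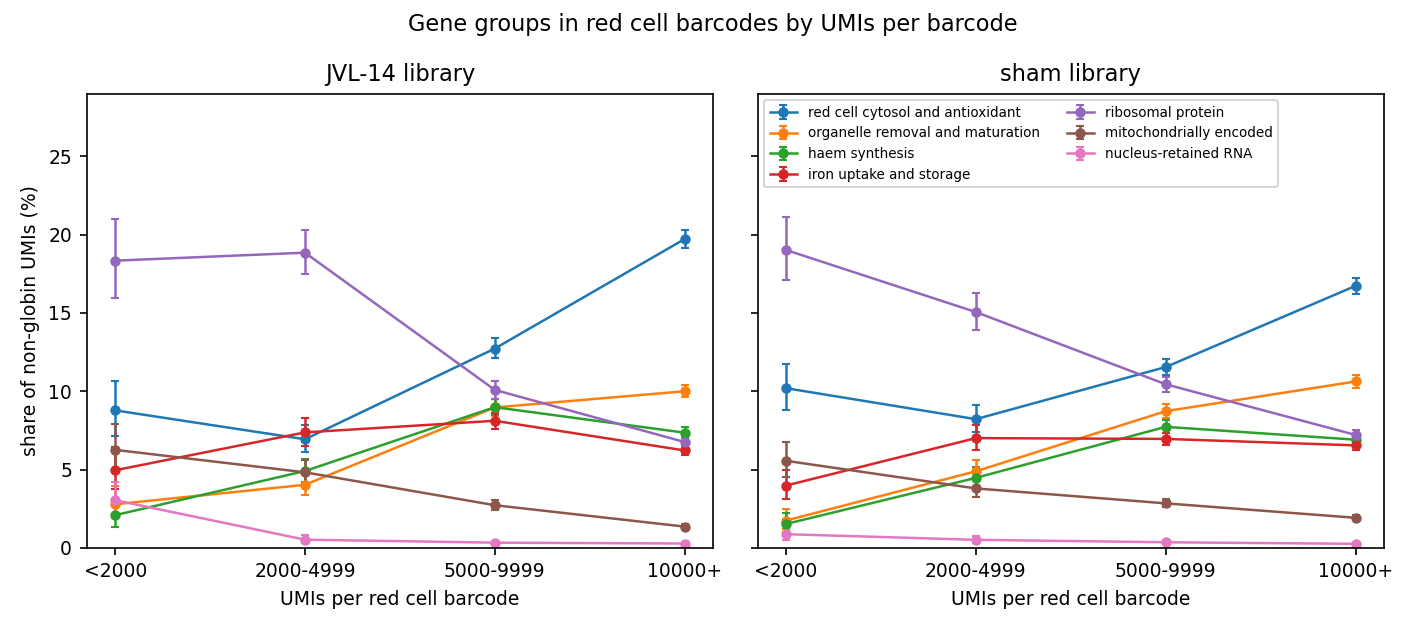
Share of non-globin UMIs (vertical axis, %) held by 7 gene groups in red cell barcodes of 4 depths, in the JVL-14 (left) and sham (right) libraries; bars are exact Poisson 95% intervals. In both libraries ribosomal protein genes hold 18.3% (JVL-14) and 19.0% (sham) at the shallow end and 6.75% and 7.21% at the deep end, while organelle removal and red cell cytosol genes are highest at the deep end.

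Gene number was one of the values the rule used, with a limit of 200, so it is given as a description of the barcodes under that limit. A median of 72.5 genes was detected per barcode in JVL-14 (range 13 to 196) and 93 in sham (12 to 191), at near-equal median depth. Drawn down to 500 UMIs each, with no barcode left out, the medians were 13 genes in JVL-14 and 15 in sham; at 5000 UMIs, leaving out 80 shallower barcodes in JVL-14 and 78 in sham, they were 61 and 71. The order was the same in every depth group, with medians of 31, 43, 70.5 and 128 genes in JVL-14 and 42, 48, 89 and 146 in sham. Ranges overlapped almost entirely, and the difference could not be tested. Past the limit the order was the opposite: globin-rich barcodes with 200 genes or more had a median of 697 genes in JVL-14 and 340.5 in sham, and 73 and 33.5 when drawn down to 500 UMIs.

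Most measured genes lay within 2-fold of each other in the red cell barcodes of the libraries. Of 378 measured genes, 6 (1.59%) were at least 2-fold higher in JVL-14 and 25 (6.61%) at least 2-fold lower, and the median difference was -0.04 on the log2 scale. The counting interval of the ratio lay above 1 for 24 genes and below 1 for 36. None of the 12 highest genes reached 2-fold. The largest among those was Ubb, at 38411 CPM in JVL-14 and 27467 in sham, a ratio of 1.40 (1.30 to 1.50).

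Some red cell genes leaned towards JVL-14 without reaching 2-fold. Prdx2, a peroxide-removing enzyme, stood at 6354 CPM in JVL-14 and 4080 in sham (ratio 1.56, 1.29 to 1.88), and Car2, a carbonic anhydrase, at 3417 and 2189 (ratio 1.56, 1.21 to 2.02). Fam220a stood at 7990 and 5274 (ratio 1.52, 1.29 to 1.79). Of the haem synthesis, iron, membrane, organelle removal and cytosol groups, the single gene at least 2-fold apart was Aldoa, with 4 UMIs in JVL-14 and 19 in sham. Apol11b was the other way, at 698 CPM in JVL-14 and 1373 in sham (ratio 0.508, 0.317 to 0.795), and so was Slc25a37, at 4284 and 5473 (ratio 0.783, 0.644 to 0.949).

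Mitochondrially encoded genes were lower in JVL-14 in 10 of 10 measured genes, with a median of -0.23 on the log2 scale against -0.04 over all measured genes, of which 208 of 378 were lower in JVL-14. The difference reached 2-fold in mt-Nd2, a subunit of respiratory complex I, with 15 UMIs in JVL-14 and 45 in sham (ratio 0.403, 0.209 to 0.737), and in mt-Nd4l on 8 UMIs in JVL-14 and 21 in sham, where the interval of 0.176 to 1.08 includes equality. It was small in the most abundant one, mt-Co1, at 6715 CPM in JVL-14 and 6787 in sham. The direction was not the same at every depth. The summed mitochondrial share was higher in JVL-14 under 2000 UMIs (6.26 against 5.56% in sham) and at 2000 to under 5000 (4.82 against 3.79%). It was lower at 5000 to under 10000 (2.72 against 2.84%) and at 10000 or more (1.36 against 1.92%). Counting intervals overlapped in all but the deepest group. Of 73 ribosomal protein genes, 25 were higher and 48 lower in JVL-14, beside 170 higher and 208 lower over all measured genes, and 2 were at least 2-fold higher, among them Rps10, and 2 at least 2-fold lower (Rpl18 and Rps18).

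The genes furthest apart between the libraries were mostly products of other tissues. Acta1 and Tnnc2, of skeletal muscle, had 0 UMIs in JVL-14 and 55 and 29 in sham, at least 15.2-fold and 7.99-fold lower against a floor of 3 UMIs. Ttr, which the choroid plexus secretes in quantity, had 0 UMIs in JVL-14 and 24 in sham, at least 6.62-fold lower. The same genes differed in other barcodes: Acta1 stood at 31.0 CPM there in JVL-14 and 2143 in sham, Tnnc2 at 13.7 and 717, and Ttr at 3.38 and 3678. The 55 Acta1 UMIs of sham were spread over 50 red cell barcodes. Skeletal muscle markers in all had 1 UMI in JVL-14, with 4 of 5 genes at 0, and 106 in sham, with none at 0. Whether free RNA carries these transcripts into red cell barcodes was not tested.

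Of 5 listed olfactory neuron markers 3 were measured; Stoml3 was near equal in red cell barcodes, with 10 UMIs in JVL-14 and 11 in sham (ratio 1.10, 0.419 to 2.85), and Omp and Gng13 were at least 2-fold lower in JVL-14. Omp, Gng13 and S100a5, the last of them off the list and named after its values were seen, had 5, 15 and 33 UMIs in JVL-14 red cell barcodes and 21, 53 and 121 in sham ones, while in other barcodes they were higher in JVL-14 (519, 917 and 2673 CPM) than in sham (312, 478 and 1124 CPM), as was Stoml3 (1114 CPM in JVL-14 and 663 in sham). Mt1, a metallothionein, had 5 UMIs in JVL-14 and 31 in sham (ratio 0.195, 0.0592 to 0.506), and Ube2m, a conjugating enzyme for NEDD8, 5 and 20. On the side of JVL-14, Scgb1c1, a secretoglobin, had 21 UMIs in 6 barcodes in JVL-14, 95.2% of them in 5, and 3 UMIs in sham (ratio 8.46, 2.53 to 44.3). Mbp, a myelin protein, had 38 UMIs in 22 barcodes in JVL-14 and 10 in 8 barcodes in sham (ratio 4.60, 2.25 to 10.3). Irf7, a regulator of interferon genes, had 29 UMIs in JVL-14 and 17 in sham, in 13 barcodes of each, and Bsdc1 had 24 and 14 UMIs. Other barcodes differed the same way in Scgb1c1 (762 CPM in JVL-14 and 7.51 in sham) and Mbp (98.2 and 37). So they did in Mt1 (1230 and 1879) and Ube2m (47.3 and 107). They did not in Irf7 (37.4 and 51.6) or Bsdc1 (19.3 and 19.8). The part of free RNA in these differences was not tested.

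**Figure D5:**
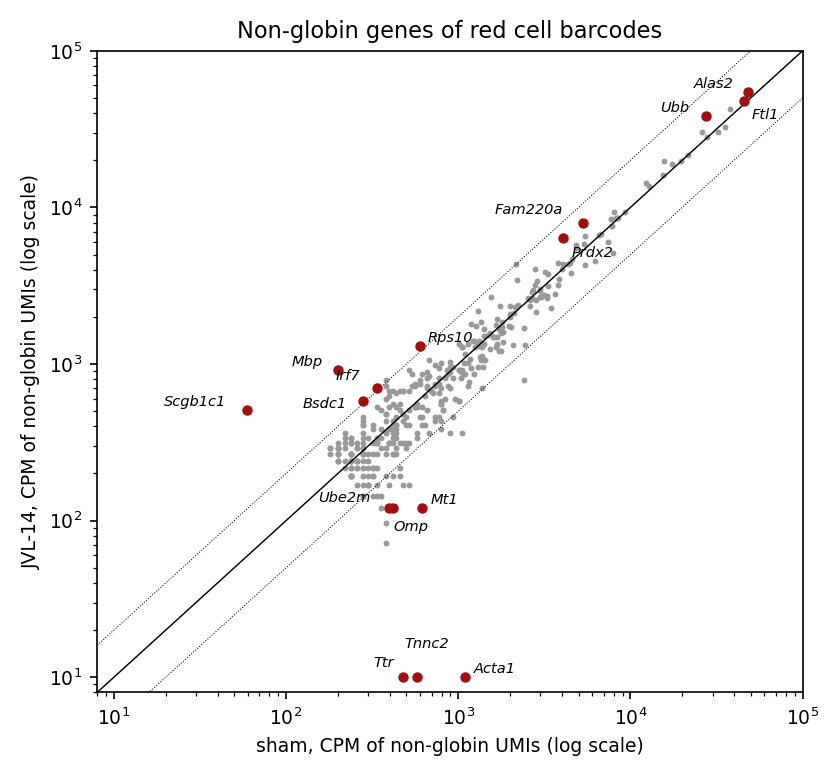
Level of each of the 378 measured non-globin genes in red cell barcodes of JVL-14 (vertical) against sham (horizontal), in CPM of non-globin UMIs on log axes; the solid line is equality, the dotted lines 2-fold, and genes at 0 are drawn at 10. Abundant genes such as Alas2 and Ftl1 lie close to the line, and Acta1, Tnnc2 and Ttr, with 0 UMIs in JVL-14, lie at the bottom.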

How the data were processed

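Dura cells of female mice were profiled in 2 single-cell RNA libraries, JVL-14 and sham. The deposited values are raw UMI counts per gene and barcode over 33696 genes, in matrices written by Cell Ranger 8.0.0 per the file headers, with the genome mm39 per the submitters' processing notes. The sources used here name neither the gene annotation nor how reads matching several genes were treated. The deposited counts hold only barcodes already called as cells, of 500 UMIs or more.

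Members and gene lists were chosen with earlier results of these data known. UMIs were summed over members per library. For repeated symbols (26 repeats), only the gene ID with the most UMIs over both libraries entered the gene comparisons. Gene levels are CPM, here UMIs per 1000000 non-globin UMIs, for genes with at least 20 UMIs in members of both libraries together, and 0.5 was added to each count for log2 ratios. Shares have exact Clopper-Pearson 95% intervals, sums exact Poisson intervals and ratios conditional exact binomial intervals; they cover counting error only. With 1 library a group, no test was made, and a gene is counted as different past 2-fold. Named genes are all globin genes, Alas2, the 12 highest, the 12 furthest above other barcodes, the 6 furthest apart each way between libraries, and list members with at least 20 UMIs; genes outside these, such as S100a5, Tfrc and Rpl38, were named after their values were seen. Some genes that meet this rule are not reported here. No doublet caller was run on barcodes under 200 genes; leaving out the 5% with the most UMIs is an alternative. Groups of barcodes by UMIs and the comparison in barcodes of 5000 UMIs or more were added after seeing the data. Upstream sequences came from RefSeq (GRCm38.p6) and transcripts from GENCODE M21, neither of the files' build, so no coordinates were carried over. Thinning drew UMIs without replacement with a fixed seed. Python 3.11.15, numpy 2.4.6, scipy 1.17.1, pandas 2.3.3, Biopython 1.88 and matplotlib 3.10.9 were used; the interval code was tested on simulated data.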

Additional observations from a re-analysis of the deposited data

How the results depend on the processing

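The JVL-14 over sham ratio of red cell shares stayed between 1.62 and 1.92 under all 8 alternatives. Changing the globin limit, the chains counted or the denominator left the counted barcodes almost the same, so those alternatives could hardly move the ratio. The shares themselves moved with the gene limit: 3.84% in sham under 150 genes and 5.41% under 300, and 11.2% in JVL-14 and 6.37% in sham with no limit. The summed Hbb-bt share of beta UMIs was 13.9% in JVL-14 and 14.5% in sham under 150 genes, 15.3% and 17.0% under 300 genes, 14.0% and 15.4% without the 5% of members with the most UMIs, and 11.5% and 13.1% as a mean over barcodes; JVL-14 was lower each time. The alpha share was 38.1% in JVL-14 and 37.8% in sham under 150 genes, 38.1% in JVL-14 under 300 genes, 37.4% in sham without the most UMI-rich members, and 39.2% in JVL-14 and 38.4% in sham as a mean over barcodes. Of 378 measured genes, 6 were at least 2-fold higher in JVL-14 and 25 lower. Under 150 genes this became 12 higher and 19 lower of 294, and under 300 genes 11 and 31 of 482. As a mean over barcodes it was 14 higher and 31 lower of 378, and as CPM of all UMIs 2 and 32 of 378. On that last scale the median over measured genes was -0.18 (log2) in place of -0.04. The genes 2-fold above other barcodes there numbered 32 in place of 175. With every gene of at least 1 UMI kept, 1598 of 5381 were at least 2-fold higher and 2282 lower. In barcodes of 5000 UMIs or more, 4 of 336 measured genes were higher and 18 lower. CPM of all UMIs counts globin in its denominator. Globin was 97.63% of UMIs in JVL-14 red cell barcodes and 97.39% in sham ones, against 0.4738% and 0.225% in other barcodes. By arithmetic, that scale lowers levels more in red cell barcodes than in other barcodes, and slightly more in JVL-14 than in sham. With 0.5 added to each count, 1 UMI against none is enough to pass 2-fold. The cause of the other shifts was not tested.

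No paired analysis was possible because each group has 1 library. Depth limits single genes: 1 UMI is worth 24.1 CPM in JVL-14 and 19.9 in sham.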
